A study of Mus musculus with 141 samples.

Results

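The 2 main metallothionein genes, 1 brain-type metallothionein gene and 6 membrane transporters of zinc and related metals were followed through liver, lung and kidney of 47 Collaborative Cross (CC) strains. The set was given by name (*Mt1*, *Mt2*, *Mt3*, *Slc30a1*, *Slc30a10*, *Slc39a4*, *Slc39a5*, *Slc39a8* and *Slc39a14*), and all 9 were found among the 24423 genes of every file. CC strains are recombinant inbred mice descended from a shared panel of founders. From every strain came a single male, 8 to 12 weeks old and fed NTP 2000, that was held in a mesh chamber with clear air for 6 hours on weekdays during 2 weeks and received nembutal (100 mg/kg) at the end. The 3 groups are therefore 3 tissues of the same animals, with 47 RNA-seq libraries each and 1 library per strain and tissue. No strain had a second animal, so strain and individual cannot be told apart anywhere below.

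Metallothioneins are small, cysteine-rich proteins that bind zinc, copper and cadmium, and their genes are among the best known targets of the zinc-sensing transcription factor MTF-1, which binds metal response elements in promoters. Transporters of the Slc30 (ZnT) family move zinc out of the cytosol, across the cell surface or into vesicles, and those of the Slc39 (ZIP) family move it into the cytosol. *Mt1*, *Mt2* and *Slc30a1*, the zinc exporter of the plasma membrane, are textbook MTF-1 targets, and hepatic metallothionein also rises with glucocorticoids, inflammation and fasting.

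On NCBIM37, the build of the alignment, the metallothionein genes lie in 1 cluster on the plus strand of chromosome 8: *Mt3* at chr8:96676507-96678048, *Mt2* at chr8:96696518-96697467 and *Mt1* at chr8:96702989-96704225, with 5521 bases between *Mt2* and *Mt1*. *Slc30a1* (chr1:193730646-193737126) and *Slc30a10* (chr1:187278727-187292641) share chromosome 1, and *Slc39a4* (chr15:76442815-76447322), *Slc39a5* (chr10:127832990-127838280), *Slc39a8* (chr3:135488243-135551536) and *Slc39a14* (chr14:70703274-70751232) are scattered. All are protein-coding genes in GENCODE vM1. Every 50-base window of the *Mt1*, *Mt2* and *Mt3* transcripts occurred no more than once in the genome, so reads of the 3 related genes could be told apart, and for the other members this share was 99.3% or more. The annotated exons of *Slc30a1* share 468 of 5244 bases with 1700034H15Rik on the opposite strand, and those of *Slc30a10* share 533 of 5836 with Gm2061, also antisense. Without strand-aware counting such reads cannot be assigned.

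RefSeq promoter windows (250 bases before to 50 after the annotated start) were found for 7 of the 9 members, 9 windows in all. The core of the metal response element was searched as TGCACNC and TGCGCNC on both strands, and matches of the 2 spellings may overlap. At least 1 match was present in 25.7% of all 32851 windows and at least 3 in 1.97%. *Mt2* had 4 matches, *Mt1* and *Slc30a10* 3 each, *Slc30a1* 2, *Mt3* 1, and *Slc39a5* and *Slc39a8* 1 each in 1 of their 2 windows. The windows of the 3 genes that moved together across livers are shown from 250 bases before the start to 30 after it, with matches in capitals; the second match of *Slc30a1* begins 31 bases after the start and is not shown. Each full window matched NCBIM37 at a single place, and the coordinates are those of the match.
Mt1 (chr8:96702739-96703018, + strand): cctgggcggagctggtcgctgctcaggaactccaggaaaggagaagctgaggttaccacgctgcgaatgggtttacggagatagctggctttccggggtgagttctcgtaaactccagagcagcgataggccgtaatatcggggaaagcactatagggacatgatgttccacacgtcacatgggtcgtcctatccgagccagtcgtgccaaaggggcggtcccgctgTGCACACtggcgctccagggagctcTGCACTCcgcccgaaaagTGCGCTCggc
Mt2 (chr8:96696268-96696547, + strand): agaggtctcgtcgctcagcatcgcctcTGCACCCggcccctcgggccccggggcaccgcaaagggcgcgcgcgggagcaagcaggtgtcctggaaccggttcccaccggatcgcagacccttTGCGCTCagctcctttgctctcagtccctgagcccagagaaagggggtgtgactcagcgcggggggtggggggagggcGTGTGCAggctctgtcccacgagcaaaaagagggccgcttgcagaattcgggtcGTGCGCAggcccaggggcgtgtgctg
Slc30a1 (chr1:193730410-193730689, + strand): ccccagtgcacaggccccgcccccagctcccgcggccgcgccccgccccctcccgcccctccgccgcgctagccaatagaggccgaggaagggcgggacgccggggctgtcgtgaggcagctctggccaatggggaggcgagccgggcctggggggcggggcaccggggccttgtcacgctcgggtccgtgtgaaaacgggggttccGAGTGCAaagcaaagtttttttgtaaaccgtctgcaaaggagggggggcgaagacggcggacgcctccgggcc
A match is only a run of letters. In *Mt1* the 3 matches lie close around the annotated start, and in *Mt2* they are spread over the window. Both the placements and the numbers of matches depend on the annotated start, and no other start of these 2 genes was searched.

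The expected count deposited for a gene estimates its reads, TPM scales it by transcript length and library, and CPM scales counts to a common library size, corrected with TMM factors (trimmed mean of M-values). Libraries held between 1738046 and 42158454 counts, and 4 strains had a library under 3000000. The summed TPM of 5 hepatocyte, 5 lung epithelial and 5 kidney tubule markers was at least 18734 in every library of the matching tissue. Genes of other organs were present in some libraries. Pancreatic enzymes (without *Cela1*) passed 100 TPM in 12 livers, and adrenal steroid enzymes (without *Hsd3b1*) in 1 liver. The brown fat genes *Ucp1* and *Cidea* passed it in 10 kidneys, 1 lung and 1 liver. Together these marked 19 strains. With *Cela1*, the pancreatic list passed 100 TPM in 18 livers and 10 kidneys. The wider adipocyte list, with *Adipoq* and *Plin1*, passed it in 16 kidneys, 4 lungs and 1 liver. Keratins and other markers of stratified squamous epithelium passed 100 TPM in 21 lungs and 1 liver. Kidney tubule markers passed it in 16 livers and 19 lungs, and lung epithelial markers in 11 livers and 9 kidneys. Hepatocyte markers passed it in 37 lungs and 47 kidneys. No strain was left out for markers of these sampled tissues. Results were recomputed without the 19 strains with pancreas, adrenal or brown fat genes, and the lung correlations of *Mt1*, *Mt2* and *Slc30a1* also without the strains with squamous lungs. Both alternatives were chosen after seeing the data. In whole tissue, a difference in the number of cells of a type and a difference in RNA per cell cannot be told apart.

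*Mt1*, which encodes metallothionein 1, was the most abundant member in every tissue. It ranged from 7.19 TPM (strain CC002) over a median of 134 to 1932 TPM (CC004) among livers, from 27.5 over 90.7 to 315 TPM among lungs, and from 33.2 over 150.3 to 267 TPM among kidneys. The tissues overlapped widely, and livers lay both far below and far above all kidneys. On CPM the upper quartile of livers exceeded the lower 7.52-fold, against 1.65-fold in lung and 1.51-fold in kidney. The highest liver exceeded the lowest 344-fold, a ratio that rests on its end libraries, since it was 184-fold without CC002 (8 counts), 171-fold without CC004 and 91.5-fold without both. The same ratio was 11.9-fold in lung and 8.37-fold in kidney. The standard deviation of log2(CPM + 1) across livers was 1.98, above that of 99.7% of the 12127 genes tested between tissues, and was 0.68 in lung and 0.54 in kidney.

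*Mt2*, its neighbour, encodes the second ubiquitous isoform and followed the same pattern at a lower level. Its TPM ran from 0.95 (CC011) over 67.5 to 617 (CC020) in liver, from 7.93 over 30.7 to 141.2 in lung and from 6.96 (CC011) over 39.7 to 119 (CC020) in kidney. The same strains thus marked both ends in liver and in kidney. In lung CC042 had the highest TPM of both *Mt1* and *Mt2*, and also the highest sum of squamous markers (5778 TPM, median 7.74). On CPM the highest lungs were CC055 for *Mt1* and CC005 for *Mt2*. The part of squamous cells in these upper ends was not tested. Per length, *Mt1* exceeded *Mt2* in 46 of 47 livers and in all 47 lungs and 47 kidneys, with a median ratio of 2.65 in liver, 2.64 in lung and 3.98 in kidney. Spread across livers was again extreme (SD of log2(CPM + 1) 2.02, above 99.7% of tested genes), and 0.70 and 0.60 in lung and kidney.

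*Mt3*, known as the brain metallothionein, was near the limit of detection. It was at or below 3 counts, the floor used here, in 47 of 47 livers, 32 lungs and 41 kidneys. Lungs ranged from 0 over 1.11 to 14.0 TPM. Summed over the libraries of a tissue, it had 224 counts in lung, 70 in kidney and only 2 in liver, and it did not pass the filter of the tissue test. *Mt4*, a metallothionein of stratified squamous epithelium and not a member, had no count in the median library of any tissue. It was at or below the floor in 46 livers, 26 lungs and 47 kidneys. Its highest values were 371 TPM in the lung of CC039 and 67.6 TPM in the liver of CC041, the liver with squamous markers.

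Among the exporters, *Slc30a1* varied least of the members found in every tissue. Its TPM ran from 8.85 over 24.7 to 40.6 in liver, from 14.6 over 51.8 to 90.6 in lung and from 19.6 over 55.5 to 83.1 in kidney. On CPM the highest library exceeded the lowest only 2.07-fold in liver, 1.88-fold in lung and 2.02-fold in kidney, and its SD in liver (0.24) was above that of 17.6% of tested genes. The lowest TPM values came from libraries that were low for several genes: the lungs of CC015 and CC055, lowest for *Slc30a1*, *Slc39a4* and *Slc39a8*, had TMM factors of TPM of 0.254 and 0.41 against a median of 1.17.

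*Slc30a10*, which exports manganese, was a liver transcript here. Every liver had between 1.35 and 39.9 TPM (median 17.9), whereas no lung and no kidney had more than 3 counts. Summed over 47 libraries it had 21691 counts in liver, 36 in lung and 30 in kidney. Per scaled count, liver exceeded lung 1294-fold (95% exact interval 934.5 to 1848) and kidney 1112-fold (778.7 to 1649), intervals that cover counting error only. The groups did not overlap.

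Among the importers, *Slc39a4* (ZIP4), best known from the intestine as the zinc importer mutated in acrodermatitis enteropathica, was abundant in lung and liver and nearly missing from kidney. It ran from 13.9 over 82.6 to 161 TPM in lung, from 7.15 over 49.4 to 94.5 TPM in liver and from 0 over 0.33 to 2.02 TPM in kidney. Neither lung nor liver overlapped kidney. In kidney 31 libraries were at or below the floor, and the summed counts gave a lung-to-kidney ratio of 118.9 (101.5 to 140.2) and a liver-to-kidney ratio of 226 (193 to 267). The intestinal list (*Fabp2*, *Vil1*, *Alpi*, *Lgals4*) summed to 9.89 to 258 TPM in liver, 1.71 to 8.65 in lung and 75.9 to 370 in kidney. Its members did not move together: *Alpi* was at or below the floor in the median library of each tissue and *Fabp2* in those of lung and kidney, so that the kidney sum came from *Vil1*, a brush-border gene that kidney tubules also use, and *Lgals4*. The part of intestinal cells in the *Slc39a4* levels was not tested.

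The other importers were low. *Slc39a8* (ZIP8), which carries zinc and manganese, ran from 0.08 over 4.70 to 8.37 TPM in lung, from 0 over 1.24 to 2.6 in kidney and from 0 over 0.54 to 1.42 in liver. *Slc39a14* (ZIP14), the hepatic importer of zinc, manganese and iron, ran from 0 over 0.93 to 2.52 TPM in liver, from 0 over 0.35 to 1.35 in lung and from 0 over 0.22 to 0.87 in kidney. *Slc39a5* (ZIP5), which sits on the basolateral side of polarized cells, was above the floor in 37 kidneys (median 1.31 TPM, up to 4.42) and in no liver or lung. The files name 3 transcripts for each of these 3 genes and 1 for each other member, and only uniquely aligned reads were counted. Of the 1419 genes with 3 named transcripts, 7.89% exceeded 10 TPM in a tissue, against 44.0% of the 18311 genes with 1, so their low levels may not be comparable with those of the other members; the part of the transcript number was not tested.

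**Figure D1:**
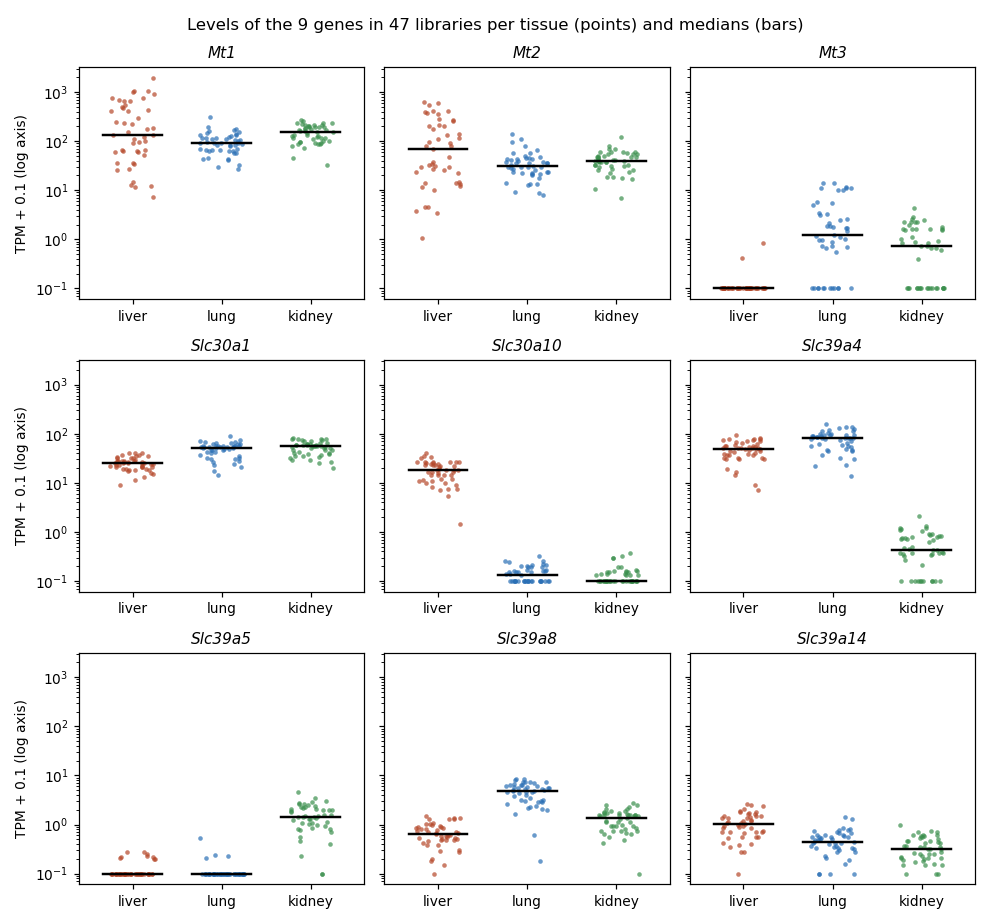
Each panel shows 1 gene, with 47 libraries per tissue as points, the median as a bar and TPM + 0.1 on a log axis. Livers spread over 7.19 to 1932 TPM for *Mt1*, while *Slc30a10* separates liver and *Slc39a4* separates kidney from the other tissues.

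Ordered by median TPM, the members ran *Mt1*, *Mt2*, *Slc39a4*, *Slc30a1*, *Slc30a10*, *Slc39a14*, *Slc39a8* in liver, with *Mt3* and *Slc39a5* at 0. *Mt2* and *Slc39a4* were not separated there, *Mt2* being higher in 26 of 47 livers. In lung *Mt1*, *Slc39a4*, *Slc30a1* and *Mt2* came first, and *Mt1* exceeded *Slc39a4* in 29 of 47 libraries. In kidney *Mt1* led *Slc30a1* in 45 of 47 libraries and *Slc30a1* led *Mt2* in 32, and all 6 others had medians of 1.31 TPM or less.

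Tissues were compared with limma-voom on the libraries of all 3 tissues together, with strain as a block, and a gene was called at q ≤ 0.1 (Benjamini-Hochberg over 12127 genes) where it also changed by 1 or more on the log2 scale, up or down. Of the 9 members 7 were tested, since *Mt3* and *Slc39a5* fell below the filter of 1 CPM in 30% of libraries. *Slc30a10* and *Slc39a14* passed it mainly through liver, with 47 and 42 libraries above 1 CPM against 2 or fewer in each other tissue. *Slc39a4* passed it through liver and lung, with 47 libraries above 1 CPM in each against 2 in kidney. The differences of these genes from the tissues where they were low follow in part from the filter. The 3 comparisons share their samples.

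Liver against lung, 4 members were called higher in liver and 1 in lung, where 23.9% and 31% of all tested genes were called in these directions. *Mt1* was 2.62 ± 0.29 (log2, SE) higher in liver, in 40 of 47 mice (q = 3.0e-14). *Mt2* was 2.98 ± 0.43 higher, in 39 mice (q = 5.1e-10). *Slc39a14* (2.82 ± 0.15, higher in 46 mice) and *Slc30a10* (fitted 9.60) were also called in liver, and *Slc39a8* was called in lung (-1.48 ± 0.10, higher there in 45 mice). *Slc30a1* (0.56 ± 0.04) and *Slc39a4* (0.81 ± 0.09) passed q but not the fold threshold, although *Slc30a1* CPM was higher in liver in 47 of 47 mice.

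Lung against kidney, 2 members were called in lung and 1 in kidney, against 25.5% and 20.6% of tested genes. *Slc39a4* (6.94 ± 0.14) and *Slc39a8* (1.33 ± 0.10) were higher in lung, and *Mt1* was lower there (-1.14 ± 0.29, q = 0.00022), with kidney ahead in 44 of 47 mice. The *Mt1* change fell short of the fold threshold with DESeq2 (-0.97), on log2(TPM + 1) (-0.66) and on log2(TPM + 0.1) (-0.66). *Mt2* pointed the same way in 37 mice but was not called (-0.71 ± 0.43, q = 0.109). The fit shares 1 estimate of the spread with the livers, and with lung and kidney alone the q of *Mt2* was 0.0018 at a log2 fold change of -0.69, still short of the fold threshold. Without the 19 strains with pancreas, adrenal or brown fat markers it was called (-1.09 ± 0.48, q = 0.0314). *Slc30a1* was lower in lung in 47 of 47 mice (-0.67 ± 0.04), and *Slc39a14* was at 0.03 ± 0.15 (q = 0.853).

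Liver against kidney, 5 of the 7 tested members were called in liver and 0 in kidney, against 15.6% and 20.8% of tested genes. The tool was limma-voom. At an unadjusted p under 0.05 *Slc30a1* was the only tested member lower in liver (-0.11 ± 0.04), and edgeR and DESeq2 also called 0 in kidney. Of the 2 untested members, *Slc39a5* had higher CPM in kidney in 45 mice and in liver in 0. *Mt3*, near the floor, was higher in kidney in 29 mice and in liver in 0. Without the low-count filter 6 members were called in all. On log2(TPM + 1) *Slc30a1* was called in kidney (-1.03). *Mt1* was 1.48 ± 0.29 higher in liver (33 of 47 mice, q = 2.4e-06) and *Mt2* 2.27 ± 0.43 (36 mice, q = 1.0e-06). *Slc39a14* (2.85 ± 0.15), *Slc39a4* (7.75 ± 0.14) and *Slc30a10* (fitted 9.25) were the others. *Slc39a8* did not pass (-0.15 ± 0.10, q = 0.143).

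**Figure D2:**
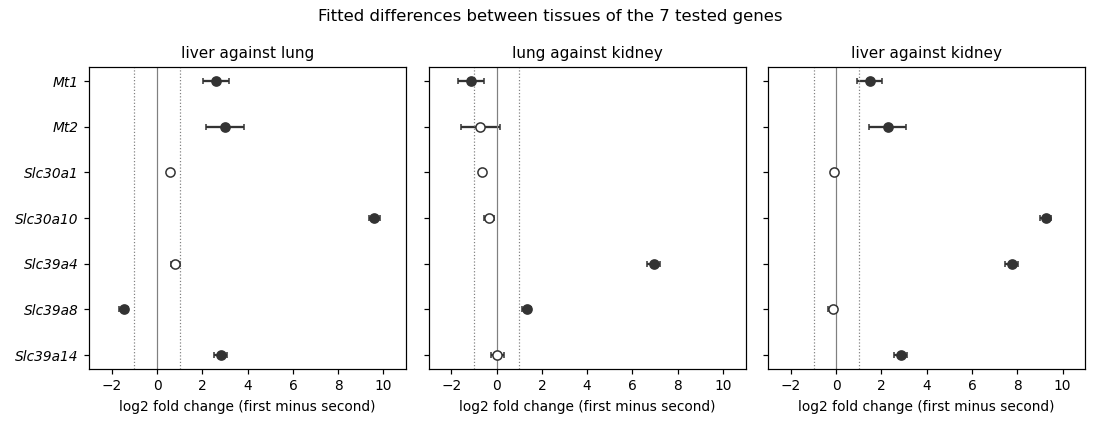
Points are fitted log2 fold changes (first tissue minus second) of the 7 tested genes with 95% intervals, filled where called, and dotted lines mark a change of 1. *Slc30a10* lies above 9 in both liver comparisons, and *Slc39a4* at 6.94 and 7.75 in both comparisons with kidney.

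These signs depend on scaling for the moderate changes. On log2(TPM + 1) the median of all tested genes moved by -1.36 for liver against lung, 0.49 for lung against kidney and -0.88 for liver against kidney relative to TMM-scaled CPM. Against such shifts *Mt1* (0.72) and *Mt2* (0.88) stayed higher in liver than in lung but lost the call, *Mt1* was near 0 between liver and kidney (0.07, q = 0.788), and *Slc30a1* (-0.88) and *Slc39a4* (-0.68) turned to lung. Calls were also lost there for *Mt2* in liver against kidney (0.62) and for *Slc39a14* in liver against lung (0.50) and against kidney (0.62). *Slc30a10* in liver against the other tissues, and *Slc39a4* in lung and liver against kidney, were called on each scale tried.

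The rest of the 2 transporter families and their partners were read from lists, whose counts stand against the shares of all tested genes called: 23.9% in liver and 31% in lung, 25.5% in lung and 20.6% in kidney, and 15.6% in liver and 20.8% in kidney. Of 8 other Slc30 genes 5 were tested: *Slc30a9* was called in liver over lung (1.20 ± 0.08), *Slc30a2*, *Slc30a9* and *Slc30a5* in kidney over lung, and *Slc30a2*, which loads zinc into vesicles, in kidney over liver (-7.02 ± 0.12), with medians of 71.4 CPM in kidney and 0.445 in liver. Of 10 other Slc39 genes 9 were tested, with 2 called in liver and 3 in lung, 2 in lung and 1 in kidney, and 1 in liver and 1 in kidney in the 3 comparisons. *Slc39a6* (-2.76 ± 0.06) and *Slc39a10* (-2.19 ± 0.05) were higher in lung than in liver, *Slc39a11* was higher in liver (1.73 ± 0.17), and *Slc39a2* was higher in liver than in kidney (4.29 ± 0.22). The brain transporter *Slc39a12* stood at a median of 0.11 TPM in kidney but at 61.6 TPM in the kidney of CC040. Of 11 genes of copper handling and *Mtf1* itself, 9 were tested, with 5 called in liver and 1 in lung, 2 in lung and 5 in kidney, and 3 in liver and 1 in kidney. Liver over lung was led by the copper chaperone *Ccs* (3.57 ± 0.05) and ceruloplasmin *Cp* (3.32 ± 0.06). Of 18 acute phase genes, 14 were called in liver and 2 in lung, 10 in lung and 2 in kidney, and 17 in liver and 0 in kidney by limma-voom (0 also by edgeR and DESeq2, and 0 lower in liver at an unadjusted p under 0.05). The list's medians on the log2 scale were 6.66, 1.84 and 8.14, against -0.06, 0.04 and -0.00 over all tested genes. Of 9 glucocorticoid-responsive genes tested, 2 were called in liver and 2 in lung, 3 in lung and 1 in kidney, and 3 in liver and 2 in kidney, with medians of -0.36, 0.45 and 0.09. *Mtf1* had medians of 5.75 TPM in liver, 14.9 in lung and 8.62 in kidney.

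Which members rose and fell together from strain to strain was asked within each tissue. Pearson's r was taken between rank inverse normal values of TMM-normalized TPM, for each member against every gene that passed the expression filter. The filter asked for TMM-normalized TPM above 1 in more than 50% of libraries, and for no single library split off by K-means. P-values came from 100000 permutations, so that 1e-05 is the smallest they can give, and were adjusted over all genes tested against a member. Where r and rho are printed together, here and between tissues, the p and q beside them are those of r. A pair was called where q ≤ 0.1 with each of its genes as the reference, and *Slc39a14* passed this filter in no tissue.

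In liver, *Mt1*, *Mt2* and *Slc30a1* moved together. *Mt1* and *Mt2* had r = 0.948 (rho = 0.971, permutation p = 1e-05), *Mt1* and *Slc30a1* r = 0.685 (rho = 0.682, permutation p = 1e-05), and *Mt2* and *Slc30a1* r = 0.642 (rho = 0.632, permutation p = 1e-05). These were the 3 pairs called of 10 tested, with q of 0.0323 or less, where 2.59% of 8622 genes were called with *Mt1*, 0.835% with *Mt2* and 0.661% with *Slc30a1*. Among all 8622 genes, *Mt2* and *Slc30a1* were the first and second most correlated with *Mt1*, and *Mt1* and *Mt2* the first and second with *Slc30a1*. Without the 2 strains farthest from the median of the first gene, the r values were 0.95, 0.718 and 0.604. On TPM without TMM, 1 of 8622 genes was called with *Mt1* and 1 with *Mt2*. There r was 0.925 for *Mt1* with *Mt2* and 0.437 for *Mt1* with *Slc30a1*. Neither metallothionein was called with *Slc30a1* on that scale. Ranked by CPM of *Mt1*, the 5 lowest livers (7.19 to 14.6 TPM) had 17.4 to 28.2 TPM of *Slc30a1*. The 5 highest on CPM (666 to 1932 TPM) had 24.7 to 40.6 TPM. They were not the 5 highest on TPM, where CC068 (984 TPM), for example, exceeded CC020 (666 TPM). The wide range of the metallothioneins went with a narrow one of the exporter, and the 2 sets of livers overlapped in *Slc30a1*. Among the 28 strains without pancreas, adrenal or brown fat markers the r values were 0.943, 0.661 and 0.577. The last was no longer called (q = 0.263).

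**Figure D3:**
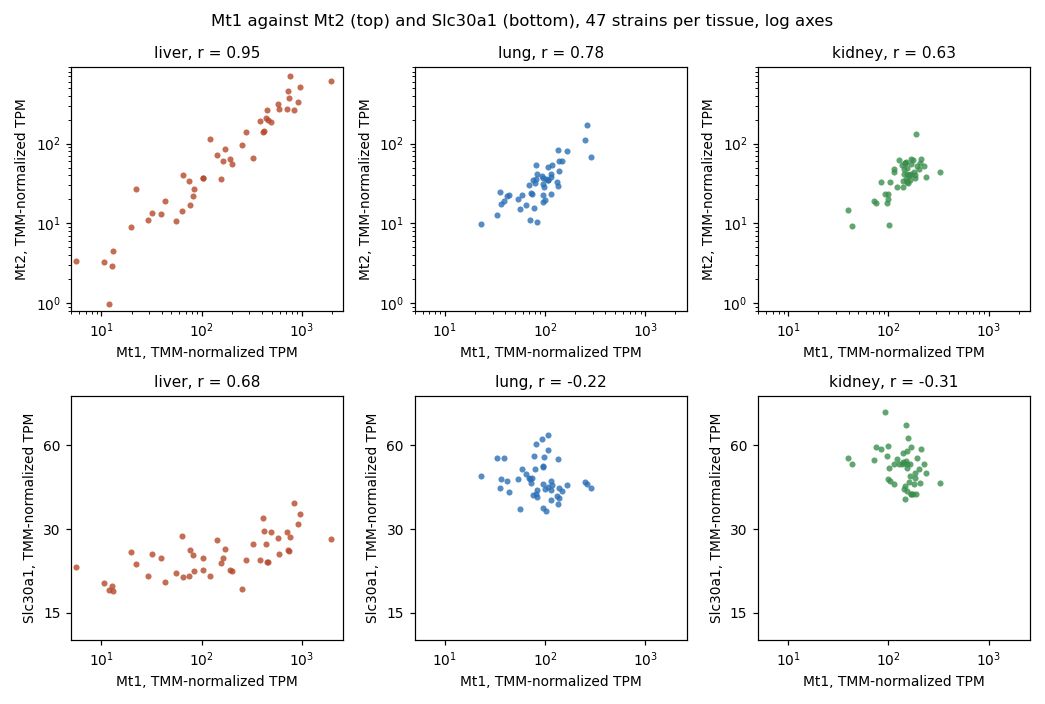
Points are 47 strains, with TMM-normalized TPM of *Mt1* on the horizontal and of *Mt2* (top) or *Slc30a1* (bottom) on the vertical log axis, for liver, lung and kidney. *Mt2* follows *Mt1* in each tissue (r = 0.948, 0.778 and 0.634), whereas *Slc30a1* rises with *Mt1* in liver and not in lung or kidney.

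*Slc30a10* had negative r with all 3 in liver on TMM-normalized TPM. Its r was -0.41 with *Mt1* (rho = -0.45, permutation p = 0.0041), -0.39 with *Mt2* (rho = -0.43, permutation p = 0.0071) and -0.41 with *Slc30a1* (rho = -0.40, permutation p = 0.0041). None of these was called with each gene as the reference (q up to 0.121, 0.221 and 0.163), and without the 2 farthest strains r was -0.46, -0.31 and -0.37. On TPM without TMM, 6881 of the 6898 liver genes called with *Slc30a10* were positive. *Slc39a4* had r between -0.20 and 0.01 with the other members, with no pair called.

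In lung, *Mt1* and *Mt2* were again correlated (r = 0.778, rho = 0.758, permutation p = 1e-05, q = 0.0124 or less, 0.730 without the 2 farthest strains), the only call among 15 pairs. Background shares were 6.66% of 11993 genes for *Mt1*, 6.5% for *Mt2* and 10.2% for *Slc30a1*. *Mt2* and *Mt3* had r = 0.426 (rho = 0.482, permutation p = 0.0029), which passed with *Mt2* as the reference (q = 0.0730) and not with *Mt3* (q = 0.816). *Slc30a1* had r = -0.22 with *Mt1* (rho = -0.28, permutation p = 0.138) and r = -0.19 with *Mt2* (rho = -0.27, permutation p = 0.189), and -0.20 and -0.17 without the 2 farthest strains. Among the 26 strains whose lung lacked squamous markers, *Mt1* and *Mt2* had r = 0.831.

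In kidney, *Mt1* and *Mt2* had r = 0.634 (rho = 0.625, permutation p = 1e-05, 0.639 without the 2 farthest strains). The pair passed with *Mt1* as the reference (q = 0.0314) but missed with *Mt2* (q = 0.104), a value that cannot be lower with these permutations unless further genes reach the smallest p. So 0 of 10 pairs were called by the permutation test, with 3 pairs at an unadjusted p under 0.05, where 0.201% of 10450 genes were called with *Mt1*, 0% with *Mt2* and 4.21% with *Slc30a1*. *Slc30a1* had r = -0.31 with *Mt1* (rho = -0.33, permutation p = 0.0321) and r = -0.40 with *Mt2* (rho = -0.41, permutation p = 0.0061), and -0.28 and -0.36 without the 2 farthest strains.

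**Figure D4:**
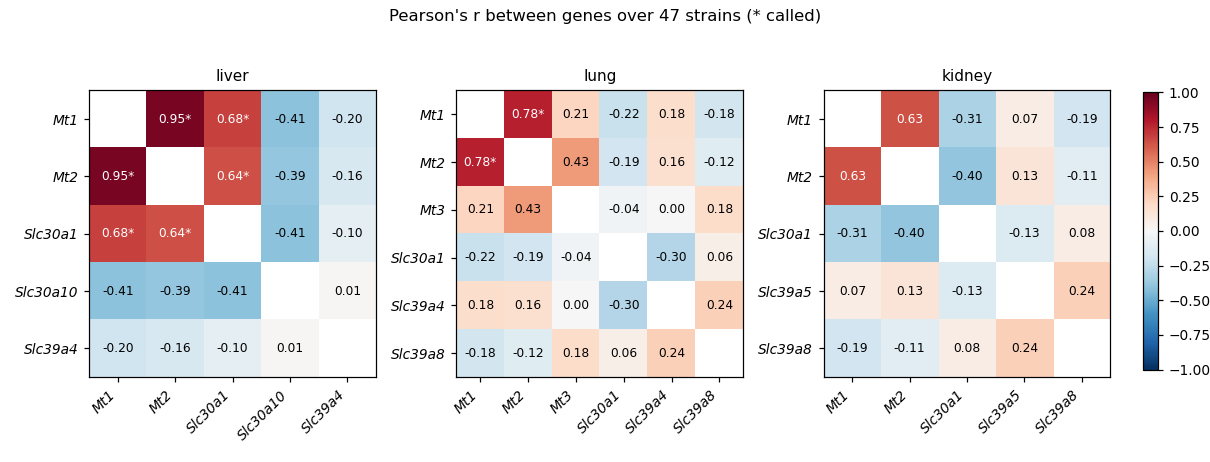
Each square gives Pearson's r between 2 members over 47 strains in liver, lung or kidney, red where positive and blue where negative, with called pairs starred. The block of *Mt1*, *Mt2* and *Slc30a1* in liver (0.948, 0.685 and 0.642) has no counterpart for *Slc30a1* in lung and kidney, where its r with both metallothioneins is below 0.

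The difference between tissues was tested directly by swapping tissues within strains, for 2 gene pairs and 3 tissue pairs (6 tests, q over the 6). The r of *Mt1* with *Slc30a1* was 0.904 higher in liver than in lung (q = 3e-05) and 0.998 higher than in kidney (q = 4e-05), and lung and kidney differed by 0.094 (q = 0.541). For *Mt1* with *Mt2* liver exceeded lung by 0.170 (q = 0.0113) and kidney by 0.315 (q = 3e-05), and lung and kidney differed by 0.144 (q = 0.283). The contrast for *Slc30a1* rests on TMM scaling. On TPM without TMM its r with *Mt1* was 0.437 among livers, 0.134 among lungs and 0.295 among kidneys, and the differences of liver from lung (0.303, q = 0.189) and kidney (0.142, q = 0.519) were not called, while *Mt1* and *Slc30a1* were called as a positive pair in kidney (q = 0.0699). On that scale *Slc30a1* was called with 92.2% of hepatic genes, 95% of lung genes and 90.3% of renal genes. CPM with TMM, computed from counts, gave 0.685, -0.22 and -0.35.

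Neighbours in expression were named by a rule, the 3 genes with the highest r, and are given for members with which at least 1 gene was called. In liver *Ago3* ranked 3 for *Mt1* (r = 0.641), *Tnfrsf1a* for *Mt2* (0.607) and *Ash1l* for *Slc30a1* (0.614), while *Slc30a10* had *Clpx* (0.764), *Cldn1* (0.745) and *Lgalsl* (0.744), with 381 of 8622 genes called. In lung *Chchd10* (0.650) and *St14* (0.617) followed *Mt2* for *Mt1*, and *St14* (0.671) and *Mn1* (0.569) followed *Mt1* for *Mt2*. *Slc30a1* had 9430020K01Rik (0.689), *Acap2* (0.677) and E030024N20Rik (0.672) in lung and *Hsp90ab1* (0.692), *Appbp2* (0.620) and *Zfp706* (0.611) in kidney. In kidney *Mt1* had *Mt2*, B830017H08Rik (0.588) and *Aldoa* (0.558). *Slc39a4* had *Wdr18* (0.647), 2510039O18Rik (0.638) and *Pcbp4* (0.635) in lung, where 1944 of 11993 genes were called with it. For *Slc39a4* in liver, *Mt3* and *Slc39a8* in lung, and *Mt2*, *Slc39a5* and *Slc39a8* in kidney, 0 genes were called.

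Lists of acute phase and glucocorticoid-responsive genes were set beside the hepatic metallothioneins. Of 14 acute phase genes tested, 1 was called with *Mt1*, *Saa2* (r = 0.469, permutation p = 0.00098, q = 0.0631), and the median r was 0.255 against 0.008 over all genes. With *Mt2* 0 of 14 were called by the same permutation test, with 5 at an unadjusted p under 0.05 and a median of 0.225. Of 7 glucocorticoid-responsive genes, *Fkbp5* alone was called, with *Mt1* (r = 0.519, permutation p = 0.00024, q = 0.0383) and with *Mt2* (r = 0.534, permutation p = 0.00013, q = 0.0681), and the list medians were 0.079 and 0.055. *Saa1* was not among the 14 genes tested. The liver of CC004, highest in *Mt1*, had 10730 TPM of *Saa1*, and the other 9 livers at the 2 ends had 15.1 to 494 TPM. Among these, the next highest in *Mt1*, CC055 and CC015, had 99.9 and 74.6 TPM. The relation of *Saa1* to *Mt1* over all livers was not tested. *Mtf1* had r = 0.247 with *Mt1* in liver (q = 0.443). In lung the exporters of the secretory pathway *Slc30a5* (r = -0.51 with *Mt1*, q = 0.0306, and -0.56 with *Mt2*, q = 0.0124) and *Slc30a7* (-0.40 with *Mt1*, q = 0.0891), and the importer *Slc39a10* (-0.40 with *Mt1*, q = 0.0926, and -0.53 with *Mt2*, q = 0.0255), were called negatively. They were 2 of 3 other Slc30 genes tested with *Mt1* and 1 of 3 with *Mt2*, and 1 of 9 other Slc39 genes with each. Background shares were 6.66% and 6.5% of genes, either sign. The 9 other Slc39 genes had positive medians, 0.115 with *Mt1* and 0.166 with *Mt2*. These negative calls hold for TMM-normalized values. On TPM without TMM, 1860 of the 1865 lung genes called with *Mt1* were positive.

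Finally, the strain order of a gene was compared between tissues of the same mice. Across all genes 12.6% of 7951 were called between liver and lung, 22.9% of 7975 between liver and kidney and 16.9% of 9513 between lung and kidney. *Mt2* was called between liver and kidney (r = 0.451, rho = 0.328, permutation p = 0.0015, q = 0.0158), 1 of 3 members tested. Its r was 0.310 (permutation p = 0.0387) without CC011 and CC020, the 2 strains farthest from the median in liver, and by rho it was not called (q = 0.113), so the relation rests in part on those strains. *Mt1* had r = 0.273 in the same pair (rho = 0.297, permutation p = 0.0627, q = 0.191). Among the 28 strains without pancreas, adrenal or brown fat markers both were called, *Mt1* at r = 0.556 (q = 0.0414) and *Mt2* at r = 0.724 (q = 0.0036). *Slc39a8* was called between lung and kidney (r = 0.399, rho = 0.387, permutation p = 0.0057, q = 0.0483, 0.378 without the 2 farthest strains), 1 of 4 tested. Between liver and lung 0 of 4 were called by the permutation test, with 1 at an unadjusted p under 0.05, *Slc39a4* (r = 0.316, rho = 0.296, permutation p = 0.0304, q = 0.167). *Slc30a1* had r of 0.215, 0.093 and 0.151 in the 3 tissue pairs.

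**Figure D5:**
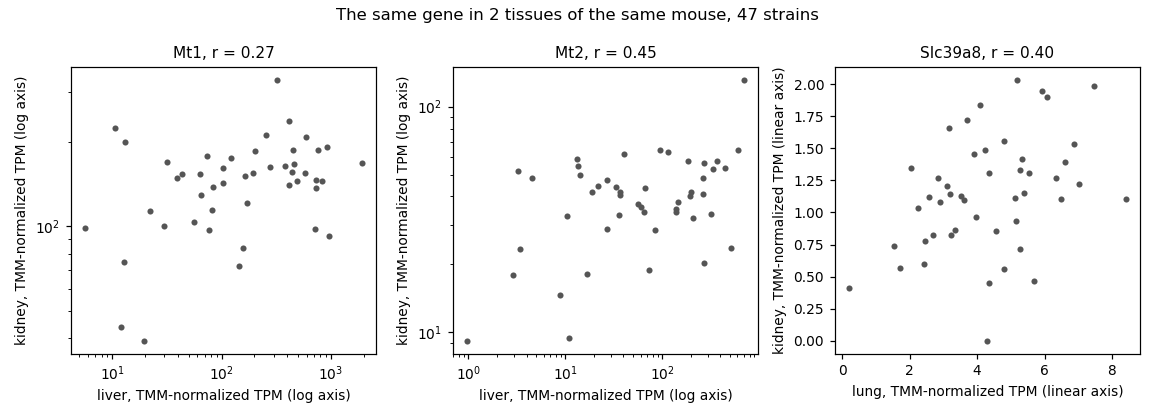
Points are the 47 mice, with TMM-normalized TPM of a gene in 1 tissue against another: *Mt1* and *Mt2* in liver and kidney on log axes, and *Slc39a8* in lung and kidney on linear axes. The r values are 0.273, 0.451 and 0.399, and for *Mt2* strain CC011 is lowest and CC020 highest in both tissues.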

How the data were processed

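Total RNA of liver, lung and kidney (141 libraries, ribosomal depletion, single-end reads) had been aligned by the authors with STAR 2.5.3a to strain-specific pseudo-genomes built on mm9 (NCBIM37) and quantified with RSEM from uniquely aligned reads. The authors deposited, for 24423 genes per library, the expected count (an estimated count of reads) and TPM, both used here, and FPKM, which was not used. Of the expected counts 25 were not whole and were rounded. No other columns of per-sample values were present.

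Groups came from the tissue labels, and libraries of a strain were paired because they came from the same animal. Deviations from the tissue mean of the same strain correlated at medians of 0.177 (liver and lung), 0.213 (liver and kidney) and 0.216 (lung and kidney), against -0.00458 to -0.00771 for other strains. Median library totals were 10423382 counts in liver, 9338124 in lung and 8245850 in kidney, at which 3 counts, the floor used, equal a median of 0.288, 0.321 and 0.364 CPM. Intervals and floors cover counting error only.

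Tissues were compared with limma-voom (limma 3.58.1, edgeR 4.0.16 for TMM, R 4.3.3) on 12127 genes above 1 CPM in at least 30% of libraries, with strain and tissue as terms. Batch was in the methods of the study but not in the labels, and was not fitted. Correlations used Python 3.11.15 with numpy 2.4.6 and scipy 1.17.1, with rank offset 0.375 and two-sided permutation tests. Each statistic was tested on simulated data first. Alternatives were DESeq2 1.42.0, edgeR's quasi-likelihood test, DESeq2 size factors, log2(TPM + 1) and log2(TPM + 0.1), no filter, q ≤ 0.01, no block, the 2 tissues alone, other correlation measures and scales, and leaving out shallow libraries. With 47 animals per group, single replicates were not left out in turn.

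Named genes were all 9 members, the 3 largest called changes of each gene list in each comparison, from which those shown were taken, and the 3 genes of highest r with each member. *Mt4*, *Slc39a12*, *Mtf1* and list genes called with a member were chosen after their values were seen. The members and lists were chosen with earlier results of these data known. Promoter windows came from RefSeq (GRCm38.p6) and were placed in NCBIM37 by exact match.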

Additional observations from a re-analysis of the deposited data

Results flagged for a closer look

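The correlation of *Mt1* with *Slc30a1* differed between tissues by a permutation test that swapped tissues within strains. It was 0.904 higher in liver than in lung and 0.998 higher in liver than in kidney. For *Mt1* with *Mt2* the same test gave a difference of 0.170 between liver and lung and of 0.315 between liver and kidney. Each of these 4 had q ≤ 0.1 over 6 tests, and they share the liver libraries. Groups of 47 libraries are too large for the test of single outlying samples used here, so none was run.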

How the results depend on the processing

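Of 83 recomputed counts, 71 stayed within 1.5 times the reported count. Without the replicate block of strain, 5, 3 and 5 members were called in liver against lung, lung against kidney and liver against kidney, as with it. Without the low-count filter 7, 4 and 6 were called. On log2(TPM + 1) 2 members were called in liver against lung and 3 in liver against kidney, and on log2(TPM + 0.1) 3 in liver against lung, in place of 5. On these 2 scales *Slc30a1* (-0.88, -0.91) and *Slc39a4* (-0.68, -0.70) turned to lung over liver. In lung against kidney *Slc30a10*, at the floor in both, was at 0.01 and 0.09, in place of -0.34. *Slc39a14* in lung against kidney was at -0.06 without the low-count filter and at -0.06 with 2 tissues in the fit.

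On TPM without TMM, 5 pairs were called in lung in place of 1 and 2 in kidney in place of 0. In liver 4 were called in place of 3, and those of *Slc30a1* with *Mt1* and *Mt2* were not among them. The r of *Slc30a1* turned positive with *Mt1* (0.134 in lung, 0.295 in kidney) and *Mt2* (0.175, 0.201). Without libraries under 3000000 counts 1 kidney pair was called. Between liver and kidney 0 members were called with Spearman's rho, 0 without TMM and 2 on log2 values, in place of 1. Without strains with pancreas, adrenal or brown fat markers 2 were called there, and 1 between liver and lung. Differences of r were called in 2 of 6 without TMM, in place of 4. The cause of these changes was not tested. Of 210 recomputed fold changes 186 kept direction and call, as did 76 of 84 r values. Alternatives on strains with pancreas, adrenal or brown fat markers and on squamous markers were chosen after seeing the data. So were, for differences of r, those on TPM without TMM and CPM. Genes with under 3 counts in most libraries of a tissue could not be ranked there, and 1 mouse per strain gives no error within a strain.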
